A study of Homo sapiens with 42 samples.

Results

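MOCOS and TCF19 are 2 of the 28266 gene symbols counted in RNA of human fibroblasts in which COPB2 had been knocked down. They were selected on a measured contrast of these libraries, because both were higher with each of 2 shRNAs against COPB2 than with a control shRNA in IMR90 ER:RAS cells given 4-hydroxytamoxifen (4OHT), and because neither belongs to the classic genes of the unfolded protein response (UPR). By edgeR, 17 genes were called higher with both shRNAs there, of which 4 were in the UPR lists used here and 13, including both MOCOS and TCF19, were not. That contrast therefore only describes the genes, and it is not a test of them.

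IMR90 is an established human fetal lung fibroblast strain, and IMR90 ER:RAS cells carry a retroviral fusion of oncogenic RAS with an oestrogen receptor domain, which 4OHT switches on to bring about oncogene-induced senescence (OIS). ER:RAS cells received 100 nM 4OHT or the solvent DMSO, and IMR90 cells without the fusion received 50 µg/ml bleomycin for 24 h, a DNA-damaging agent that also leads to senescence, or DMSO. After 7 days every culture, controls included, was given 1 µg/ml doxycycline, which induced a control shRNA (shControl), COPB2 shRNA 1 or COPB2 shRNA 2 for 72 h, and RNA was taken at day 10. This gave 6 ER:RAS groups of 3 libraries and 6 IMR90 groups of 4, 42 libraries and 12 groups in all. Both models rest on 1 fibroblast strain in culture, and OIS was driven by a transgene.

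MOCOS encodes molybdenum cofactor sulfurase, which adds the sulfur that the molybdenum cofactor needs in xanthine dehydrogenase (XDH) and aldehyde oxidase (AOX1), enzymes of purine breakdown and of aldehyde oxidation. TCF19 encodes a nuclear protein with a forkhead-associated (FHA) domain and a plant homeodomain (PHD) finger, first described as a growth-regulated gene whose RNA rises at the G1/S boundary of the cell cycle. COPB2 belongs to the coatomer, the coat of the COPI vesicles that carry cargo from the Golgi to the endoplasmic reticulum. ATF4 is the transcription factor of the PERK arm of the UPR, and DDIT3 encodes CHOP, a factor induced in the same arm when stress in the endoplasmic reticulum persists.

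MOCOS (ENSG00000075643) lies on the forward strand of chromosome 18 from base 36187497 to 36272157 of GRCh38.p14, and its canonical transcript has 15 exons and 6182 bases. TCF19 (ENSG00000137310) lies on the forward strand of chromosome 6 from 31158589 to 31164215, in the major histocompatibility complex, with 4 exons and 3243 bases in its canonical transcript. The promoters of both are shown because the genes are set beside ATF4 and DDIT3 below, whose proteins bind known DNA elements. They are RefSeq sequence of GRCh38.p14 on the forward strand, 250 bases before to 50 bases after the annotated start, at chr18:36187247-36187546 for MOCOS and chr6:31158339-31158638 for TCF19. Capitals mark CCAAT boxes.
MOCOS: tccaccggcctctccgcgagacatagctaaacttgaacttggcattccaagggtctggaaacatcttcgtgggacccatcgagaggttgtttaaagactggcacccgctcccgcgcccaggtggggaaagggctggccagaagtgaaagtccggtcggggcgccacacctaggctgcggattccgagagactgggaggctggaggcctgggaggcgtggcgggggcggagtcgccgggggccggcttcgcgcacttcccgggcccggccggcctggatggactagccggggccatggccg
TCF19: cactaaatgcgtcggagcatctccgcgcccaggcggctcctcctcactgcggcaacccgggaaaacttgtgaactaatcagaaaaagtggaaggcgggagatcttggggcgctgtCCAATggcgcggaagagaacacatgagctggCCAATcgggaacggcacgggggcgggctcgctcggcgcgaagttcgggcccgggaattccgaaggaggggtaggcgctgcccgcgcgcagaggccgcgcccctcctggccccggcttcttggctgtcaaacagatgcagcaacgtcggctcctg

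The TCF19 promoter held the letters CCAAT at 2 places, 135 and 104 bases before the start, and the MOCOS promoter held none on either strand. CCAAT stood in 35.7% of 27305 promoters of the same length. Neither promoter held the C/EBP-ATF response element TGATGNAAN (in 3.67% of all promoters), the cAMP response element TGACGTCA (1.98%), the unfolded protein response element TGACGTGG (0.795%) or an E2F site in 1 of its 4 forms TTTCCCGC, TTTGGCGC, TTTCGCGC and TTTGCCGC (3.33%). Both strands were searched in each case, so a site on the reverse strand is counted too. The absence of a match says only that these letters are not in the window shown. GC content was 67% for MOCOS and 65% for TCF19, against a median of 58.3% over all promoters (quartiles 46.7% and 67.7%).

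Between 13148194 and 23597310 reads were counted per library, so that the 3 counts taken as a floor are 0.127 to 0.228 per 1000000 unscaled reads. Counts per 1000000 reads (CPM) are computed here over library sizes scaled by the trimmed mean of M-values (TMM), so that floor is not on their scale. In replicate 1 of the OIS control, with 18124337 reads, 16 counts of MOCOS became 1.44 CPM by this scaling. COPB2 itself was 4.31 to 7.61-fold lower with the COPB2 shRNAs in each of the 4 cell states (edgeR, adjusted p at most 0.00471), which is the direction their labels call for. Of the 9 fibroblast genes COL1A1 had at least 935 CPM and VIM at least 3628 in every library, while the lowest library had 48.7 CPM for COL3A1, 6.66 for DCN and 3.37 for LUM. Of the epithelial genes CDH1 and EPCAM stayed at or under 0.861 and 1.61 CPM, but KRT18 ran from 37.9 to 233 CPM, KRT8 from 12.5 to 59.8 and KRT19 from 1.01 to 47.8, and the T cell gene CD3E had at most 7 counts. No 2 replicates of a group had counts equal within sampling noise in the 54 pairs compared. The labels do not tie a replicate to a separate culture. The paper's legend for its knockdown enrichment plots calls the replicates independent experiments, without naming the libraries. The p-values cover the spread between these libraries, which may be in part technical.

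MOCOS and TCF19 were both expressed at a low to moderate level, and both had their lowest group mean in OIS cells with the control shRNA. MOCOS stood highest in ER:RAS DMSO cells with COPB2 shRNA 1 (14.5 ± 3.00 CPM, mean ± SD, n = 3) and lowest in ER:RAS 4OHT cells with shControl (1.79 ± 0.327 CPM, n = 3). In the order of its 12 group means the ranges of neighbouring groups overlapped except at 2 steps, one between ER:RAS DMSO cells with COPB2 shRNA 2 (11.9 ± 0.834 CPM), the lowest of the 6 DMSO groups, and the bleomycin group with COPB2 shRNA 2 (9.34 ± 1.68 CPM, n = 4), the other between ER:RAS 4OHT cells with COPB2 shRNA 1 (7.52 ± 2.25 CPM) and the OIS control. The rest of the order of MOCOS is therefore not resolved by the spread between libraries.

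TCF19 was also highest in an ER:RAS DMSO group with COPB2 shRNA 1 (11.7 ± 2.44 CPM, n = 3) and lowest in the OIS control (1.54 ± 0.302 CPM, n = 3). Neighbouring groups of TCF19 did not overlap at 3 steps of the order. One lay between ER:RAS DMSO cells with shControl (11.5 ± 1.42 CPM) and with COPB2 shRNA 2 (9.55 ± 0.228 CPM), one between IMR90 DMSO cells with COPB2 shRNA 2 (7.54 ± 0.750 CPM) and bleomycin cells with COPB2 shRNA 2 (3.70 ± 1.09 CPM), and one between bleomycin cells (2.76 ± 0.436 CPM) and OIS cells, both with shControl. Thus bleomycin groups with any shRNA were low in TCF19, while OIS groups were low only with shControl, as the plot of levels by library shows.

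**Figure D1:**
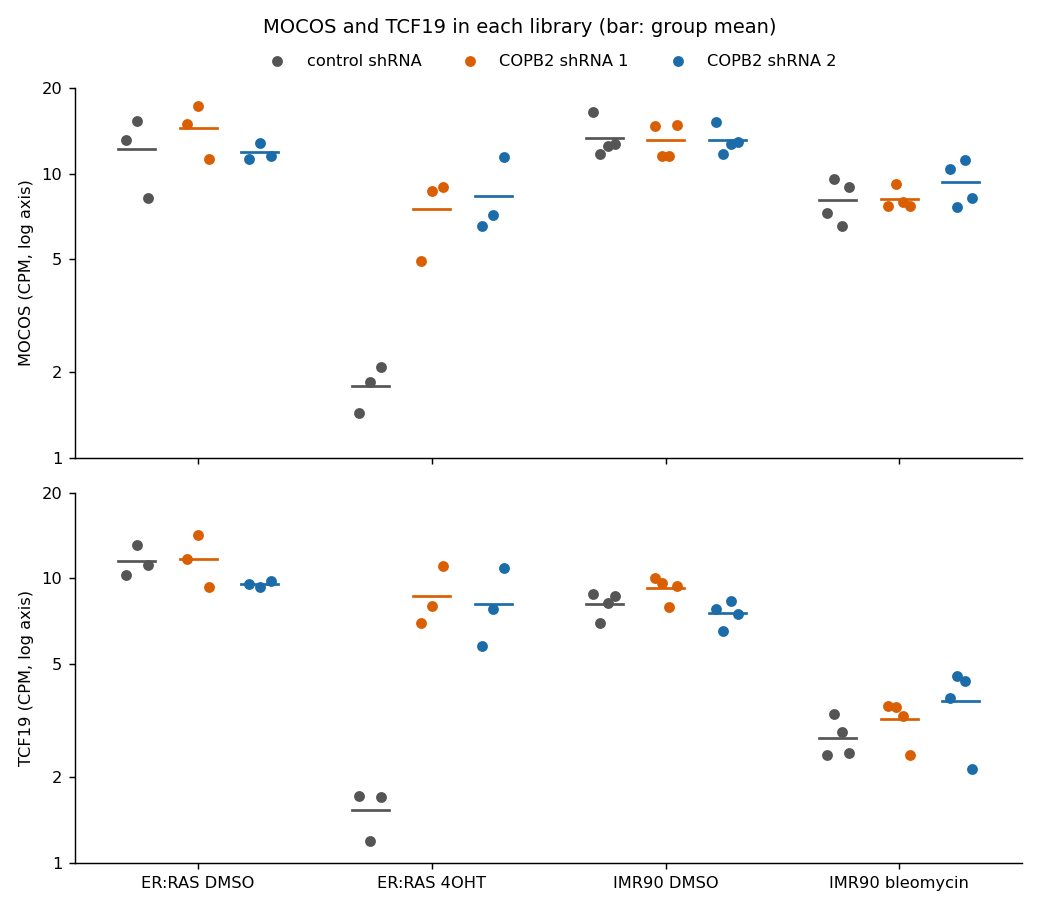
CPM of MOCOS and of TCF19 (log axis) in each of the 42 libraries, as points, by group, with bars at the group means. In ER:RAS 4OHT cells the 3 control libraries lie at 1.44 to 2.09 CPM for MOCOS and 1.19 to 1.71 CPM for TCF19, below all 6 libraries with a COPB2 shRNA.

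In OIS cells, the contrast on which both genes were selected, MOCOS stood at 1.44, 1.85 and 2.09 CPM in the 3 control libraries, which are counts of 16, 28 and 33. With COPB2 shRNA 1 it stood at 4.92, 8.69 and 8.94 CPM, and with COPB2 shRNA 2 at 6.56, 7.15 and 11.4 CPM. Groups did not overlap, and the share of all genes apart in this way was not counted. The fitted log2 fold change of MOCOS was 2.05 (SE 0.34, 4.13-fold) with COPB2 shRNA 1 and 2.21 (SE 0.34, 4.62-fold) with COPB2 shRNA 2.

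TCF19 stood at 1.71, 1.19 and 1.71 CPM in the OIS control libraries, which are counts of 19, 18 and 27. With COPB2 shRNA 1 its values were 6.96, 7.99 and 11.01 CPM, and with COPB2 shRNA 2 they were 5.80, 7.79 and 10.8 CPM, so the groups were again apart. The fitted log2 fold change of TCF19 was 2.49 (SE 0.31, 5.61-fold) and 2.40 (SE 0.31, 5.28-fold). In this contrast 0.126% of 14297 genes were called higher with COPB2 shRNA 1 and 0.21% with COPB2 shRNA 2, from which the choice of both genes took its members, and nothing is read from that share. In bulk RNA, fewer cells that express a gene and less of its RNA per cell cannot be told apart.

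The values that passed the selection were adjusted p (edgeR's quasi-likelihood test, Benjamini-Hochberg over all genes tested) of 0.0189 and 0.00811 for MOCOS with COPB2 shRNA 1 and 2, and of 0.00354 and 0.00268 for TCF19. Just inside the threshold stood SNHG20, with a larger adjusted p of 0.039, and just outside stood KCNK6 (0.0504) and CPZ (0.0535). Besides both genes the 17 hold INHBE, ATF3, DDIT3 and HERPUD1 of the UPR lists, and C17orf107, BEX2, C16orf71, LINC00346, CHRNE, LDHD, ATP6V0D2, TES, MPC1, SLC1A4 and SNHG20. By the smaller of both fold changes TCF19 ranked 10 and MOCOS 11 among genes called, or nearly called, with both shRNAs. The MOCOS call with COPB2 shRNA 1 did not survive the loss of control replicate 1, 2 or 3 or of COPB2 shRNA 1 replicate 2 or 3 (adjusted p 0.0638 to 0.126), and that with COPB2 shRNA 2 did not survive the loss of control replicate 2 (0.0594), whereas both TCF19 calls did survive each such loss. With only the libraries compared in the fit, both calls of each gene were lost (edgeR adjusted p 0.232 to 0.659).

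Marker sums of other cell types are given beside this contrast, since they differ between its groups. The 3 immune genes, nearly all of it CD68, summed to 110 to 120.3 CPM in the OIS control libraries, 81.7 to 98.6 with COPB2 shRNA 1 and 83.0 to 92.0 with COPB2 shRNA 2, while PTPRC stayed at or under 1.96 CPM in all 42 libraries. The 3 endothelial genes summed to 9.05 to 11.1, 8.64 to 11.7 and 10.1 to 13.7 CPM. The part of either in the MOCOS and TCF19 values was not tested.

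In the other cell states, which the selection did not use, neither gene was called in any comparison of a COPB2 shRNA with shControl. In ER:RAS DMSO cells, which carry the fusion but had not been given 4OHT, MOCOS stood at 13.1, 15.3 and 8.23 CPM with shControl, 14.9, 17.2 and 11.3 CPM with COPB2 shRNA 1 and 11.3, 12.8 and 11.5 CPM with COPB2 shRNA 2. All 3 groups overlapped. The log2 difference of MOCOS over both shRNAs was 0.08 (SE 0.27, 95% interval -0.50 to 0.66, edgeR adjusted p 1), and 0.22 and -0.07 for the single shRNAs. With either shRNA 0.00699% of 14297 genes were called, and 0.014% for the mean of both, which are 1 and 2 genes.

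TCF19 in ER:RAS DMSO cells stood at 10.3, 13.05 and 11.1 CPM with shControl and 11.7, 14.2 and 9.29 CPM with COPB2 shRNA 1. With COPB2 shRNA 2 it stood at 9.58, 9.31 and 9.76 CPM, all below the control libraries, although the log2 difference of -0.30 (SE 0.28, 95% interval -0.90 to 0.31, edgeR adjusted p 1) was not called. How many of all genes lay apart like this was not counted. Over both shRNAs the log2 difference of TCF19 was -0.15 (SE 0.24, 95% interval -0.67 to 0.37).

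In bleomycin-treated IMR90 cells MOCOS stood at 7.27, 9.57, 6.55 and 8.97 CPM with shControl, at 7.72, 9.22, 7.96 and 7.70 CPM with COPB2 shRNA 1 and at 10.4, 7.62, 11.1 and 8.22 CPM with COPB2 shRNA 2. The groups overlapped. The log2 difference of MOCOS was 0.02 (SE 0.17, 95% interval -0.33 to 0.37) and 0.21 (SE 0.17, -0.13 to 0.56), and over both shRNAs 0.12 (SE 0.15, -0.19 to 0.42). Its adjusted p values (edgeR) were 1, 0.842 and 1. The calls covered 0.00676% of 14783 genes with COPB2 shRNA 1, 0.0744% with COPB2 shRNA 2 and 0.0474% for both.

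TCF19 in the same cells stood at 2.39, 3.32, 2.87 and 2.44 CPM with shControl, at 3.55, 3.54, 3.29 and 2.39 CPM with COPB2 shRNA 1 and at 3.78, 4.53, 4.36 and 2.14 CPM with COPB2 shRNA 2. Replicates 3 and 4 with COPB2 shRNA 1 and replicate 4 with COPB2 shRNA 2 lay within or under the control range, and the other 5 libraries above it. The log2 difference of TCF19 was 0.22 (SE 0.20, 95% interval -0.19 to 0.62) with COPB2 shRNA 1 and 0.43 (SE 0.20, 0.02 to 0.83) with COPB2 shRNA 2. The latter had an unadjusted p of 0.0402 in edgeR's test and an adjusted p of 0.724, so it did not pass over all genes. With the replicate number as a block, which pairs the IMR90 knockdown libraries, the genes called with COPB2 shRNA 2 went from 10 higher and 1 lower to 24 and 4, yet TCF19 (log2 difference 0.41, adjusted p 0.401) and MOCOS (0.21, adjusted p 0.591) were still not among them. With the block 1 gene was called higher and 2 lower with COPB2 shRNA 1, and 12 and 2 over both shRNAs, again without MOCOS and TCF19.

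In IMR90 DMSO cells both genes lay close to the control level. MOCOS stood at 13.4 ± 2.11 CPM with shControl, 13.1 ± 1.87 with COPB2 shRNA 1 and 13.1 ± 1.49 with COPB2 shRNA 2 (n = 4 each), a log2 difference over both shRNAs of -0.01 (SE 0.14, 95% interval -0.31 to 0.29). TCF19 stood at 8.14 ± 0.824, 9.23 ± 0.900 and 7.54 ± 0.750 CPM, a log2 difference over both of 0.05 (SE 0.16, -0.28 to 0.38). Adjusted p (edgeR) was 1 for both genes, and 0.00676% of 14783 genes were called with each shRNA and for both, which is 1 gene in each case.

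Whether a knockdown effect was larger in senescent than in DMSO cells was tested for IMR90. The difference of effects for MOCOS was 0.03 (SE 0.24, 95% interval -0.47 to 0.52) with COPB2 shRNA 1 and 0.22 (SE 0.24, -0.27 to 0.71) with COPB2 shRNA 2 on the log2 scale. For TCF19 it was 0.02 (SE 0.27, -0.53 to 0.58) and 0.52 (SE 0.27, -0.04 to 1.08), the latter with an unadjusted p of 0.066 in edgeR's test. No gene at all was called, which is 0% of 14783 with either shRNA by edgeR and also by DESeq2, while 121 and 285 genes had an unadjusted p under 0.05 by edgeR. In ER:RAS cells the same quantity contains the contrast of the selection and is given without a test: 1.83 (SE 0.46) and 2.27 (SE 0.46) for MOCOS, and 2.49 (SE 0.41) and 2.699 (SE 0.42) for TCF19. Between OIS and bleomycin these values differ in size, but the cell line goes with the model, and they were not tested against each other.

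**Figure D2:**
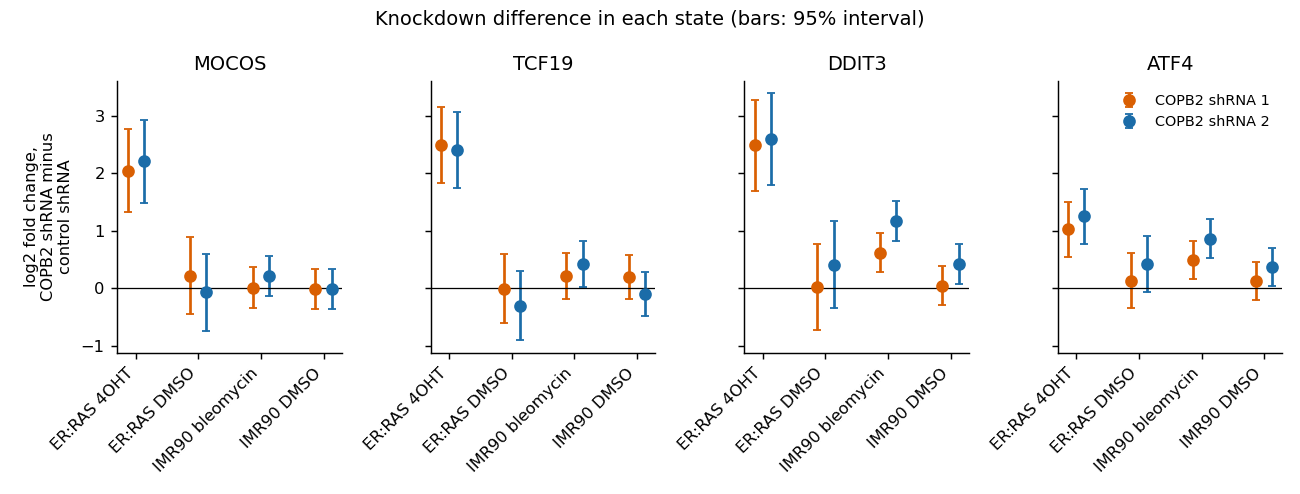
Log2 fold change of MOCOS, TCF19, DDIT3 and ATF4 with each COPB2 shRNA against shControl (edgeR, bars are 95% intervals) in each of the 4 cell states. MOCOS and TCF19 lie between 2.05 and 2.49 in ER:RAS 4OHT cells, the contrast that chose them, and between -0.30 and 0.43 elsewhere.

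Senescence was also compared with DMSO. With shControl, MOCOS went from 12.2 ± 3.61 CPM in ER:RAS DMSO cells to 1.79 ± 0.327 CPM in OIS cells (n = 3 each), a log2 fold change of -2.83 (SE 0.34, 95% interval -3.57 to -2.10, 7.13-fold lower, edgeR adjusted p 1.2e-05). TCF19 went from 11.5 ± 1.42 to 1.54 ± 0.302 CPM, a log2 fold change of -2.99 (SE 0.31, -3.66 to -2.32, 7.93-fold lower, adjusted p 2.74e-06). These 2 values use the OIS control libraries of the contrast on which the genes were selected, so their sizes and p-values depend on that choice and are given as description. Calls covered 35.7% of 14297 genes, 20.2% of them all being lower, so that a call in OIS was common among genes.

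Bleomycin used other libraries. MOCOS fell from 13.4 ± 2.11 to 8.09 ± 1.41 CPM (n = 4 each), a log2 fold change of -0.75 (SE 0.17, 95% interval -1.10 to -0.40, 1.68-fold lower, edgeR adjusted p 0.00157). TCF19 fell from 8.14 ± 0.824 to 2.76 ± 0.436 CPM, a log2 fold change of -1.59 (SE 0.19, -1.996 to -1.19, 3.02-fold lower, adjusted p 2.57e-06). The lowest DMSO library exceeded the highest bleomycin library for both genes, by 11.7 to 9.57 CPM for MOCOS and by 6.97 to 3.32 CPM for TCF19. How many of all genes were apart in this way was not counted, so nothing is read from that separation. Calls covered 31.2% of 14783 genes, and 15.8% were lower.

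Both decreases were also called in bleomycin cells with COPB2 knocked down, a comparison added after the data had been seen. With COPB2 shRNA 1 the log2 fold change was -0.72 (edgeR adjusted p 0.00178) for MOCOS and -1.57 (2.12e-06) for TCF19, where 35.2% of genes were called. With COPB2 shRNA 2 it was -0.53 (SE 0.17, 0.0153) for MOCOS and -1.07 (0.000136) for TCF19, where 40% were called. The MOCOS call with COPB2 shRNA 2 was lost without replicate 1 of the DMSO group (log2 fold change -0.44, adjusted p 0.0524) or replicate 2 of the bleomycin group (-0.42, 0.0575), and with only the libraries compared (-0.51, 0.09). In ER:RAS cells with a COPB2 shRNA the corresponding values contain the libraries of the selection and are description: -1.01 (SE 0.32) and -0.56 (SE 0.32) for MOCOS, -0.49 (SE 0.28) and -0.29 (SE 0.28) for TCF19.

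The difference between both senescence responses with shControl, OIS minus bleomycin, was -2.03 (SE 0.33, 95% interval -2.69 to -1.37, edgeR adjusted p 2.03e-05) for MOCOS and -1.34 (SE 0.32, -1.996 to -0.68, adjusted p 0.00267) for TCF19 in a fit of all 42 libraries. These values also use the OIS control libraries and depend on the choice of the genes, so they are description too. The model and the cell line cannot be told apart, and 20.3% of 15299 genes were called.

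**Figure D3:**
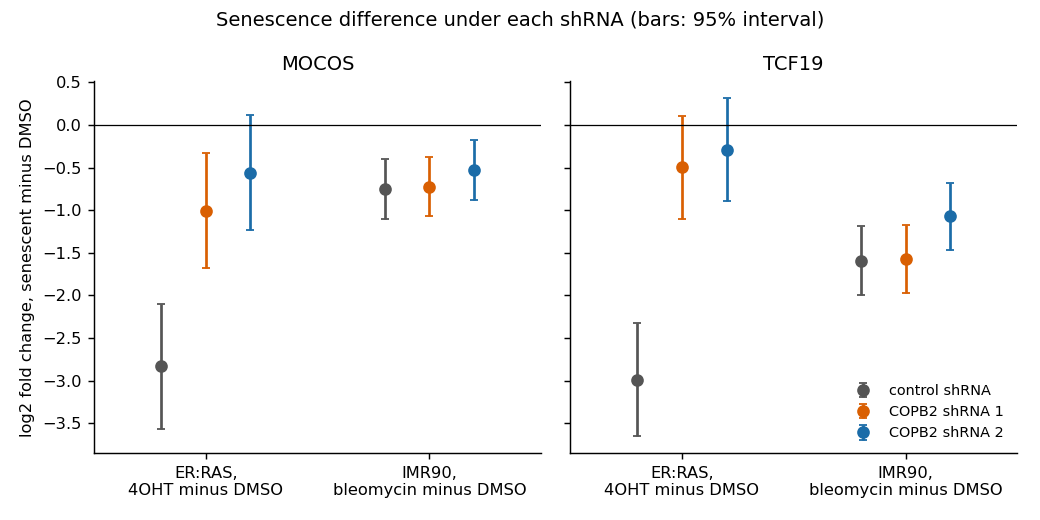
Log2 fold change of MOCOS and TCF19 from DMSO to senescent cells (4OHT in ER:RAS, bleomycin in IMR90) with each shRNA, with 95% intervals from edgeR. With shControl MOCOS and TCF19 lie at -2.83 and -2.99 in OIS and at -0.75 and -1.59 after bleomycin, and with the COPB2 shRNAs in ER:RAS they lie between -1.01 and -0.29.

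Levels of the 2 genes were compared per kilobase of the canonical transcript. In DMSO cells with shControl TCF19 had the higher level, 3.54 ± 0.437 against 1.98 ± 0.584 CPM per kb for MOCOS in ER:RAS cells, and 2.51 ± 0.254 against 2.16 ± 0.342 in IMR90 cells. In OIS control cells both were low, at 0.474 ± 0.0931 for TCF19 and 0.290 ± 0.0529 for MOCOS. After bleomycin the order turned, with 1.31 ± 0.229 CPM per kb for MOCOS and 0.850 ± 0.135 for TCF19. The ratio of MOCOS to TCF19 per kb was accordingly 0.633 ± 0.187 in OIS control cells and 1.56 ± 0.302 in bleomycin control cells, and it ran from 0.371 to 2.02 over the 42 libraries. In OIS cells with COPB2 shRNA 1 and 2, TCF19 had 2.67 ± 0.649 and 2.51 ± 0.783 CPM per kb and MOCOS 1.22 ± 0.364 and 1.35 ± 0.426.

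DDIT3 and ATF4 were then set beside both genes. In OIS cells DDIT3 stood at 29.6, 25.6 and 27.1 CPM with shControl, at 106, 118 and 233 CPM with COPB2 shRNA 1 and at 124, 137 and 233 CPM with COPB2 shRNA 2, again with no overlap. In these 9 libraries the top 2 for MOCOS, for TCF19 and for DDIT3 were the same, namely replicate 3 of COPB2 shRNA 1 and of COPB2 shRNA 2. ATF4 did not have that order, since it stood at 300.1, 205 and 118 CPM with shControl, at 402, 478 and 384 CPM with COPB2 shRNA 1 and at 467, 563 and 451 CPM with COPB2 shRNA 2. No correlation is given over these 9 libraries, because they fall into 2 clusters by the selection itself. By that choice the knockdown libraries come first for MOCOS and TCF19. Replicate 3 also had the highest DDIT3 in each ER:RAS DMSO group, at 45.1, 44.2 and 52.7 CPM. The part of the replicate number in the shared top 2 was not tested.

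Bleomycin cells showed DDIT3 moving without either gene being called. DDIT3 stood at 25.4, 30.3, 26.4 and 41.04 CPM with shControl and at 53.3, 69.3, 74.0 and 78.9 CPM with COPB2 shRNA 2, a log2 fold change of 1.17 (SE 0.17, edgeR adjusted p 0.00241) that stayed called when any 1 library was left out. With only the libraries compared the DDIT3 value stayed at 1.17 but lost its call (adjusted p 0.555). ATF4 stood at 168 ± 33.3 and 304 ± 52.3 CPM in the same groups, a log2 fold change of 0.86 (adjusted p 0.041) that lost its call without any 1 of 7 of the 8 libraries. In these libraries MOCOS and TCF19 had the uncalled log2 differences of 0.21 and 0.43 given above.

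With COPB2 shRNA 1, DDIT3 in bleomycin cells stood at 45.03, 35.9, 44.6 and 63.4 CPM, which was not called (log2 difference 0.62, edgeR unadjusted p 0.00103, adjusted p 1). In DMSO cells of either line DDIT3 was not called, with 35.003 ± 9.25, 36.3 ± 7.22 and 48.2 ± 6.14 CPM in ER:RAS cells and 29.6 ± 1.57, 30.4 ± 1.69 and 39.3 ± 3.49 CPM in IMR90 cells, for shControl, COPB2 shRNA 1 and COPB2 shRNA 2. With shControl the log2 difference of DDIT3 between senescent and DMSO cells was -0.46 in OIS (95% interval -1.22 to 0.29) and 0.02 after bleomycin (-0.32 to 0.37), neither of them called. ATF4 in contrast fell in both, by 0.69 (edgeR adjusted p 0.0263) and by 0.63 (edgeR adjusted p 0.00483) on the log2 scale. Calls covered 35.7% and 31.2% of all genes in these contrasts. In OIS the ATF4 ranges overlapped, at 118 to 300.1 CPM against 280 to 323 CPM in DMSO cells. By the choice of the genes MOCOS and TCF19 were lower in OIS control cells than in OIS cells with COPB2 shRNAs. DDIT3, itself called there, was at 25.6 to 29.6 CPM in the former and at 106 CPM or above in the latter. In IMR90 DMSO cells with shControl DDIT3 was at 27.5 to 31.2 CPM, MOCOS at 11.7 to 16.4 and TCF19 at 6.97 to 8.79 CPM. A relation within the OIS libraries was not tested.

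Across libraries of 1 state that the selection did not use, the relation of each gene to DDIT3 and to ATF4 was computed on log2 CPM with a pseudocount of 0.5, 12 relations in all. In the 9 ER:RAS DMSO libraries MOCOS had a Pearson r of -0.76 with DDIT3 (permutation p 0.016, adjusted 0.0959) and a Spearman rho of -0.82 (p 0.0108, adjusted 0.129). Without the 2 libraries farthest from the median of DDIT3 r was -0.58, and within shRNA groups, as deviations from the group means, it was -0.97. TCF19 had an r of -0.78 with DDIT3 there (permutation p 0.0141, adjusted 0.0959), a rho of -0.63 (p 0.076, adjusted 0.456), -0.49 without the 2 farthest libraries and -0.65 within groups. Neither passed the adjustment. MOCOS and DDIT3 follow the replicate number, since in each of the 3 shRNA groups replicate 3 had the highest DDIT3 (45.1, 44.2 and 52.7 CPM) and replicate 2 the lowest DDIT3 and the highest MOCOS (15.3, 17.2 and 12.8 CPM). TCF19 was highest in replicate 2 with shControl and COPB2 shRNA 1 (13.05 and 14.2 CPM), but lowest there with COPB2 shRNA 2 (9.31 CPM). The 9 libraries are then nearer to 3 sets than to 9 independent points, and the permutation p, which treats them as exchangeable, may be too small.

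In the 12 IMR90 DMSO and 12 bleomycin libraries r of MOCOS with DDIT3 was -0.05 and 0.34, and that of TCF19 was -0.40 and 0.21. Within shRNA groups the bleomycin values were -0.01 for MOCOS and -0.45 for TCF19. With ATF4, r lay between 0.01 and 0.35 for MOCOS and between -0.28 and 0.28 for TCF19 in the 3 states. None of the 12 relations passed an adjusted p of 0.05.

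**Figure D4:**
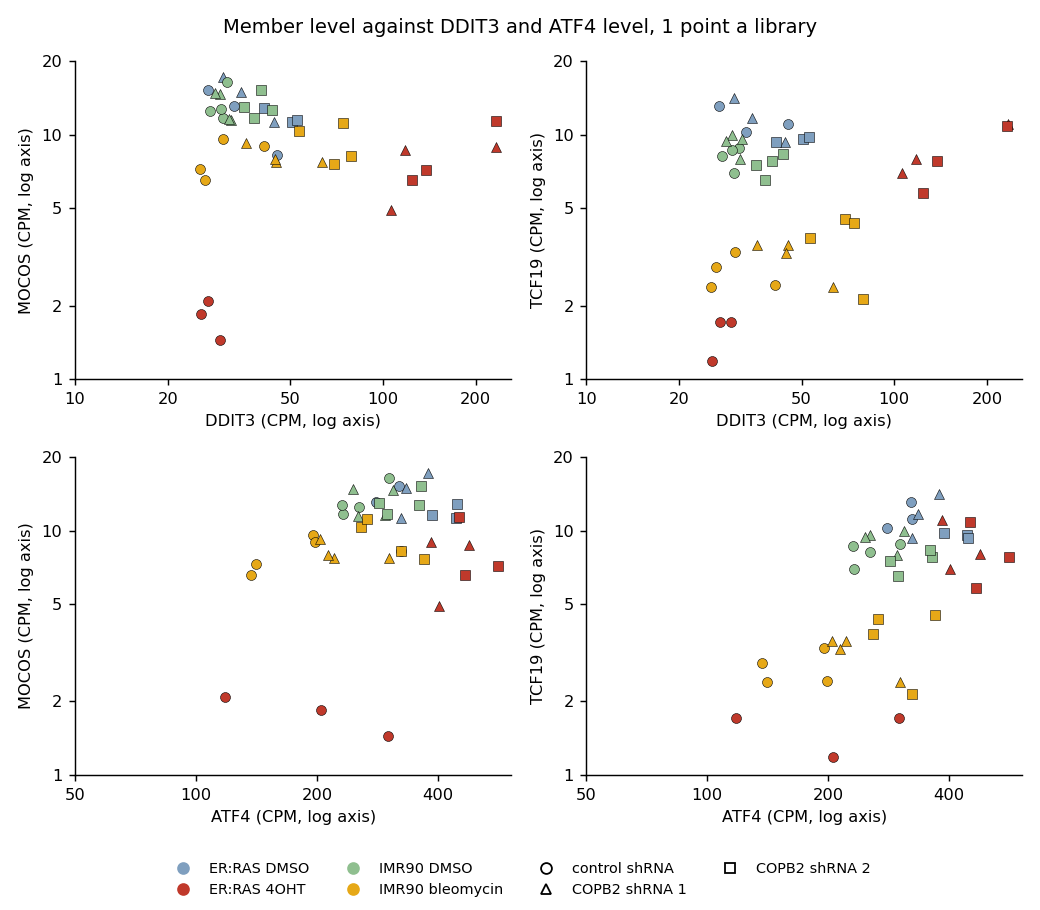
CPM of MOCOS and TCF19 against CPM of DDIT3 and of ATF4 (log axes) in each of the 42 libraries, coloured by cell state and marked by shRNA. The 3 OIS control libraries lie apart at the bottom at 25.6 to 29.6 CPM of DDIT3, whereas bleomycin libraries reach 78.9 CPM of DDIT3 with MOCOS between 6.55 and 11.1 CPM.

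The genes that work with MOCOS were described with a list of 11 that make the molybdenum cofactor or need it, MOCOS included. In OIS cells MOCOS was called with each COPB2 shRNA by the choice of the genes. None of the other 10 was called, where 0.126% and 0.21% of 14297 genes were called higher. The median log2 difference of these 10 was 0.02 with COPB2 shRNA 1 and -0.07 with COPB2 shRNA 2, beside -0.07 and -0.08 over all genes tested. MOCS1, which starts the cofactor's synthesis, had 0.03 and 0.14, MOCS2 had -0.04 and -0.13, and GPHN (gephyrin, which inserts the molybdenum) had 0.02 and -0.05. The 2 enzymes that depend on MOCOS had XDH values of 0.09 and -0.08 and AOX1 values of -0.03 and -0.04. None of the 14 genes of purine catabolism was called, with medians of -0.06 and -0.12. At the shares of all genes given above, nothing is read from a list without a call.

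In senescent cells XDH rose where MOCOS fell. It went from 1.08 ± 0.247 to 27.1 ± 1.43 CPM in OIS (n = 3 each, log2 fold change 4.54, edgeR adjusted p 4.87e-09), and it remained at 29.2 ± 4.07 and 25.99 ± 1.28 CPM with the COPB2 shRNAs. After bleomycin XDH rose by 2.13 (adjusted p 0.000295) and AOX1 by 2.03 (adjusted p 4.66e-07) on the log2 scale, AOX1 from 14.2 ± 1.66 to 59.6 ± 13.7 CPM (n = 4 each). AOX1 in OIS had a log2 difference of 0.46, which was not called. Of the 11 genes, 2 rose (XDH and NFS1) and 4 fell (MOCOS, MTARC1, MTARC2 and SUOX) in OIS, and 3 rose (AOX1, XDH and NFS1) and 3 fell (MOCOS, MTARC1 and MTARC2) after bleomycin. Over all genes tested, 15.5% rose and 20.2% fell in OIS, and 15.4% rose and 15.8% fell after bleomycin. SUOX, sulfite oxidase, fell by 1.31 on the log2 scale in OIS (adjusted p 0.00223) and had differences of -0.61 and -0.67 with the COPB2 shRNAs there, on the other side of 0 from MOCOS but not called.

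TCF19 was set beside 32 other genes of the G1/S boundary, which license origins, copy DNA or make its building blocks. In OIS cells none of the 32 was called with a COPB2 shRNA, where 0.126% and 0.21% of all genes were called higher, and nothing is read from that. Their median log2 difference was 0.01 and -0.04. CDC6, which loads the replicative helicase, had the highest values after TCF19, 1.73 (edgeR adjusted p 0.425) and 2.09 (adjusted p 0.102), while MCM2 had 0.29 and 0.07, CCNE1 0.03 and 0.14 and E2F1 -0.18 and -0.19. With OIS itself 22 of the 33 fell, TCF19 included, 3 rose (CCNE1, E2F1 and CDC25A), and the median log2 difference was -1.36, beside 20.2% of all genes that fell. After bleomycin 14 fell, TCF19 included, and 4 rose (CCNE1, PCNA, TYMS and CDC25A), with a median of -0.72, beside 15.8% of all genes that fell. TCF19 was thus among the genes of its list that fell in both models. In the OIS knockdown contrast, which chose it, TCF19 alone of the list was called, at 2.49 and 2.40 beside 1.73 and 2.09 for CDC6. Of the 25 readers with a PHD finger or an FHA domain, 24 were tested. In OIS cells none besides TCF19, called there by the choice of the genes, was called with either COPB2 shRNA. In OIS 5 of the 24 fell, TCF19 included, and 2 rose (FOXK2 and CHFR), at a median log2 difference of -0.16, and after bleomycin 8 fell, TCF19 included, and none was called higher, at a median of -0.33, beside the shares of all genes given above.

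The UPR lists give the setting of these changes. Of 36 tested genes of the PERK and ATF4 arm, 3 were called higher in OIS cells with COPB2 shRNA 1 (DDIT3, ATF3 and INHBE) and 4 with COPB2 shRNA 2 (ATF4 besides), with medians of 0.60 and 0.66, beside 0.126% and 0.21% of all genes. The ATF4 call (edgeR adjusted p 0.0304) was lost with DESeq2 size factors (0.0815), without the filter (0.0679), with only the libraries compared (1) and without any 1 of 5 of the 6 libraries (0.0933 to 0.233), and the DDIT3 call with COPB2 shRNA 1 was lost with only the libraries compared (0.494) and without control replicate 2 (0.077) or 3 (0.0502). Of the 35 genes of the ATF6 and XBP1 arm, HERPUD1 was called with COPB2 shRNA 1, and HSPA5 (the chaperone BiP), HERPUD1 and DERL3 with COPB2 shRNA 2, with medians of 0.33 and 0.42. MOCOS and TCF19, at 2.05 to 2.49, lay above these medians and below INHBE, which had 4.80 and 4.95. In bleomycin cells with COPB2 shRNA 2, 5 of 36 PERK and ATF4 genes rose (ATF4, DDIT3, MTHFD2, INHBE and CTH, median 0.69) and 1 of 35 of the other arm (HERPUD1, median 0.27), beside 0.0744% of all genes called there. MOCOS and TCF19 and the other genes of the molybdenum and G1/S lists were not called in that contrast.

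**Figure D5:**
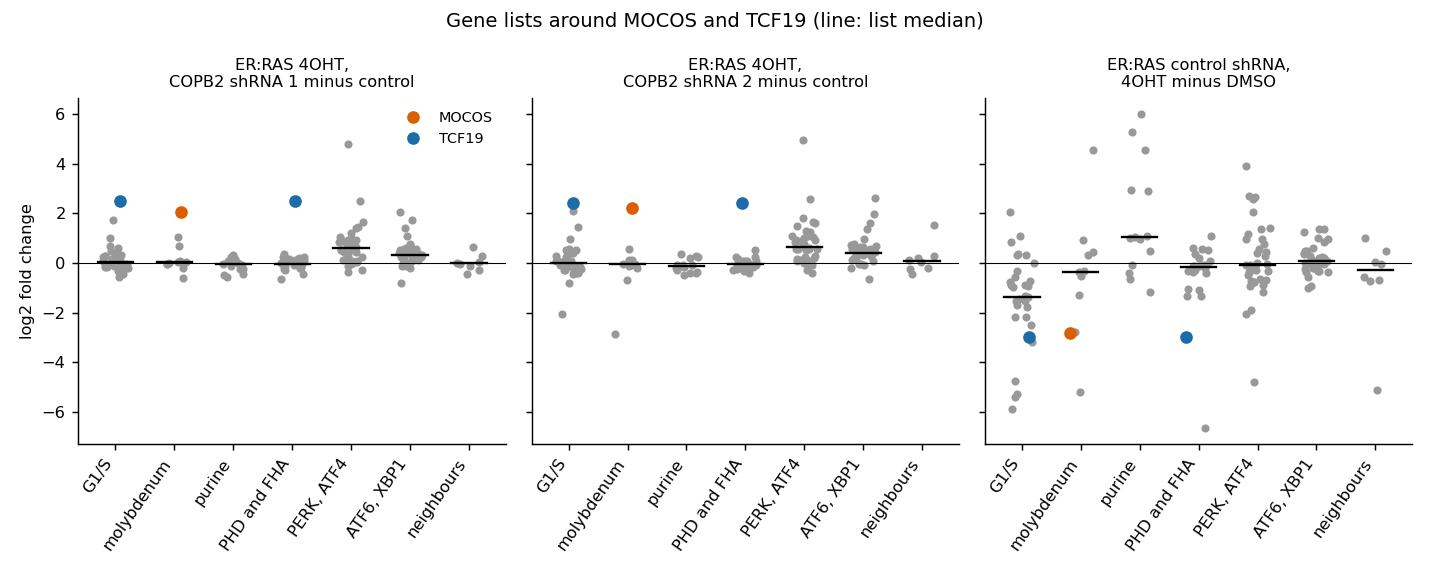
Log2 fold changes in ER:RAS cells of the genes of each list, 1 point a gene, with COPB2 shRNA 1 or 2 against shControl under 4OHT and from DMSO to 4OHT with shControl, with lines at the list medians and MOCOS and TCF19 coloured. Both stand at or above 2.05 in the knockdown panels, where the other molybdenum and G1/S genes have medians between -0.07 and 0.02, and at -2.83 and -2.99 in the OIS panel.

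Genes next to both on the chromosome were not called in the OIS knockdown contrast, where 0.126% and 0.21% of all genes were called higher. Of 12 neighbours 8 passed the filter on low counts, and the median log2 difference was -0.01 and 0.08. CCHCR1 ends 391 bases before TCF19 and had -0.45 and -0.44, and ELP2, 6939 bases from MOCOS, had 0.28 and 0.26. FHOD3, 25555 bases beyond MOCOS, had -0.12 and -0.20. POU5F1, 121 bases beyond TCF19, had 0 to 3 counts in a library and was not tested. After bleomycin CCHCR1 fell by 0.75 (edgeR adjusted p 0.0119) and FHOD3 by 1.03 (adjusted p 0.000231) on the log2 scale. The counting of reads over overlapping genes, over alternate haplotypes of the histocompatibility complex or over COSMOC, a transcript that ends 61 bases before MOCOS, is not given in the sources used here, so reads shared with these cannot be told from those of MOCOS and TCF19.

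The genes most like MOCOS by Pearson r of log2 CPM over the 12 group means were TADA1 (0.99), HYKK (0.97), SHOX2 (0.96), EXD2 (0.94) and TES (0.93), and those most like TCF19 were CNOT10 (0.95), CCDC149, HJURP, CDKN2C and GPR173 (0.90 each), out of 14009 other genes. TES is itself among the 17 genes called with both shRNAs in OIS cells. Over the 24 IMR90 libraries, which the selection did not use, MOCOS was most like ZNF3 and EHD3 (0.92), ZNF496 and SCMH1 (0.91) and RAB3IL1 (0.90), and TCF19 most like JDP2 (0.96), ALPL, RALGPS1, MEGF6 and TSPOAP1-AS1 (0.95 each). No gene was among the 5 of a member over both sets. MOCOS and TCF19 had an r of 0.78 with each other over the group means and of 0.88 over the IMR90 libraries, whereas r over the group means with DDIT3 was -0.03 for MOCOS and 0.19 for TCF19, and with ATF4 0.39 and 0.72. Among 14009 other genes TCF19 ranked 437 in likeness to MOCOS over the group means and 44 over the IMR90 libraries. MOCOS ranked 102 and 405 in likeness to TCF19. The group means hold the OIS groups that chose both genes, so values over them depend in part on that choice. These are descriptions over points that share libraries, cell lines and treatment.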

How the data were processed

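Poly(A) RNA of 42 libraries was sequenced from 1 end with directional kits. The authors deposited unnormalized counts of reads for 28266 symbols, 3476 of them without any count. The submitters' processing notes name hg38, DRAGEN, STAR 2.7.8a and DESeq2 1.32.0, and the study's methods name Tophat, hg19 and HTSeq. Which of these made the counts is not given in the sources used here, and coordinates are those of GRCh38.p14. Without molecular identifiers, floors are limits of counting error alone.

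Genes were filtered with filterByExpr, scaled with TMM and tested with the two-sided quasi-likelihood F-test of edgeR 4.0.16 (R 4.3.3), 18 ER:RAS libraries in 1 fit, 24 IMR90 libraries in another and all 42 for the difference of senescence responses. Adjustment (Benjamini-Hochberg) ran over all genes tested, with calls at an adjusted p under 0.05. Group values are CPM as mean ± SD, and relations used permutation tests over libraries (all pairings of 9, 100000 resamples of 12). Tests were checked on simulated counts.

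The members, gene lists and comparisons were chosen with earlier results of these data known. Genes named are both members, COPB2, DDIT3, ATF4, genes of the lists, those called with both shRNAs in 4OHT libraries, the 5 most like each member and their neighbours. Same-numbered libraries were checked for deviating together, and every pair did so (r over 0.1) in 6 of 14 contrasts, among them the 4 IMR90 knockdowns but not the ER:RAS knockdowns. This pairing comes from the data and not from the labels. Alternatives were DESeq2 1.42.0 (its size factors and its Wald test), no filter, a replicate block, only the libraries compared, and leaving out each library.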

Additional observations from a re-analysis of the deposited data

Results flagged for a closer look

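The difference of senescence responses with the control shRNA, OIS in ER:RAS cells minus bleomycin in IMR90 cells, was listed because edgeR's test of the difference itself was past its threshold for both genes, but the OIS control libraries also chose the genes, so its size and p depend on that choice. It was -2.03 on the log2 scale for MOCOS (adjusted p 2.03e-05) and -1.34 for TCF19 (adjusted p 0.00267), in a test that called 20.3% of 15299 genes. All 3 OIS control libraries lay below all 4 bleomycin control libraries for both genes. The share of all genes apart in this way was not counted. Model and cell line cannot be told apart here. No library stood apart from its group in the 24 sets of 4 IMR90 libraries (MOCOS, TCF19, DDIT3 and ATF4 in 6 groups each) looked at for a single far value.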

How the results depend on the processing

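Over 94 results, the direction held for every value past its threshold under each alternative run. With only the libraries compared (6 in an OIS contrast), edgeR called no gene there (249 and 348 had an unadjusted p under 0.05), and the log2 fold changes lost their calls at nearly the same size: MOCOS 2.05 (adjusted p 0.659) and TCF19 2.50 (0.344) with COPB2 shRNA 1, MOCOS 2.25 (0.332) and TCF19 2.45 (0.232) with COPB2 shRNA 2, and in bleomycin senescence with COPB2 shRNA 2 MOCOS -0.51 (0.09). These fits had fewer libraries to estimate the spread, and the part of this in the lost calls was not tested. The other 4 alternatives kept the OIS calls of both genes (adjusted p 8.71e-10 to 0.0204). Leaving out single libraries gave MOCOS 1.87 to 2.28 and 1.88 to 2.36 in OIS, and -0.61 to -0.42 in that bleomycin contrast.

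Of the log2 differences, signs changed only for uncalled values near 0. TCF19 with COPB2 shRNA 1 in ER:RAS DMSO cells, -0.01, became 0.027 with DESeq2 size factors, 0.0095 with the replicate block, 0.026 with DESeq2 and 0.0038 with only the libraries compared, and MOCOS with COPB2 shRNA 2 in IMR90 DMSO cells became 0.0005 with only the libraries compared. The r of MOCOS with ATF4 in ER:RAS DMSO cells became -0.072 with DESeq2 size factors. Without single libraries the ranges crossed 0 in ER:RAS DMSO cells for TCF19 with COPB2 shRNA 1 (-0.16 to 0.13), MOCOS with COPB2 shRNA 2 (-0.26 to 0.10) and over both (-0.12 to 0.25) and DDIT3 with COPB2 shRNA 1 (-0.17 to 0.28), in bleomycin cells for MOCOS with COPB2 shRNA 1 (-0.093 to 0.11), in IMR90 DMSO cells for MOCOS with COPB2 shRNA 1 (-0.073 to 0.086), with COPB2 shRNA 2 (-0.071 to 0.093) and over both (-0.051 to 0.089) and TCF19 over both (-0.0047 to 0.088), and for the IMR90 differences of effects with COPB2 shRNA 1 of MOCOS (-0.090 to 0.11) and TCF19 (-0.075 to 0.12). As deviations from shRNA group means, r changed sign in 7 of 12 relations, none of them past its threshold, some from values far from 0 (TCF19 with DDIT3 in IMR90 DMSO cells from -0.40). In these terms r with DDIT3 was -0.97 for MOCOS in ER:RAS DMSO cells, -0.0090 for MOCOS and -0.45 for TCF19 after bleomycin and 0.18 for TCF19 in IMR90 DMSO cells, and r with ATF4 was -0.051 for MOCOS and -0.23 for TCF19 after bleomycin and 0.63 and 0.36 for TCF19 in ER:RAS and IMR90 DMSO cells.

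Counts of called genes moved more. The replicate block took the OIS counts from 18 higher and 2 lower to 40 and 4 with COPB2 shRNA 1 and from 30 and 2 to 63 and 13 with COPB2 shRNA 2 (MOCOS 2.03 and 2.20, TCF19 2.48 and 2.38), and DESeq2 gave 48 and 2, and 66 and 4. In bleomycin cells with COPB2 shRNA 2, 10 higher and 1 lower became 24 and 4 with the block, 30 and 6 with DESeq2, 5 and 1 without the filter and 0 and 1 with only the libraries compared, and for both shRNAs 6 and 1 became 12 and 2, 14 and 1, and 0 and 1 under the block, DESeq2 and only the libraries compared. With only the libraries compared, the genes called in OIS fell to 1285 higher and 1626 lower, and in bleomycin senescence with COPB2 shRNA 2 from 3205 and 2710 to 1886 and 1848. The block raised those called higher in ER:RAS senescence from 2196 to 3342 with COPB2 shRNA 1 and from 2132 to 3342 with COPB2 shRNA 2, and those called in the difference of senescence responses from 3101 to 2067 higher and 2644 lower. The other counts of comparisons given here that moved by more than 1.5 times were of 4 genes or fewer, besides the ER:RAS differences of effects. There edgeR's main fit called none, and DESeq2 called 7 and 1, and 11 and 1. With the block edgeR called 4 higher and 0 lower there with each COPB2 shRNA. In ER:RAS cells the data hint at pairing, with 35 of 45 same-numbered pairs over an r of 0.1 (median 0.67, other numbers -0.55), 13 of 18 libraries closest to their own number and every pair over 0.1 in senescence with either COPB2 shRNA, but not every pair in the knockdowns. Among the results compared, the block changed no call of MOCOS or TCF19. The ER:RAS differences of effects, given without a test, were not among them. DESeq2 size factors moved the OIS median of all genes from -0.08 to 0.04 and the split from 2210 higher and 2888 lower to 2414 and 2487, with MOCOS at -2.73 and TCF19 at -2.87. Depth limits the OIS control values most, which rest on 16 to 33 reads a library.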
